A study of Glycine max with 34 samples.

Results

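The palisade and hourglass layers, the pair of adjacent outer cell layers of the soybean seed coat, were compared on the 2 arrays labelled seed coat palisade and the 2 labelled seed coat hourglass, 4 of the 34 arrays in the study. Arrays were assigned to the layers by label alone, and no measured value decided which arrays belonged. The comparison itself was chosen with earlier results of these data known. All material was soybean (Glycine max) of 1 cultivar, Asgrow A3237, grown at 22 °C under 16 h of light and 8 h of dark, and the labels name no mutant, transgene or treatment. Seeds of 6.0 to 7.0 mm, holding early maturation embryos, were preserved in an ethanol and acetic acid fixative and sectioned in paraffin at 8 microns, and each layer was cut out with a laser. The RNA (2 ng a sample) was amplified, labelled and read on an Affymetrix Soybean Genome Array, which measures each transcript with a set of short probes. The 34 arrays cover 16 microdissected compartments and whole seeds, with 2 arrays each. The labels call the 2 arrays of a layer biological replicates but do not say how many seeds each holds, or whether the layers share seeds, so the p-values measure only the spread between these samples.

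The seed coat is maternal tissue that encloses the embryo. Its palisade layer is the outer epidermis, a sheet of tall cells that becomes the hard surface of the seed and in legumes is the main site of flavonoid pigments and proanthocyanidins (condensed tannins). Hourglass cells lie just beneath it, with thickened side walls and wide air spaces between them, and in soybean they are known for the seed coat peroxidase encoded by Ep. Proanthocyanidins are made from phenylalanine by the phenylpropanoid enzymes (C4H, 4CL), then chalcone synthase and chalcone isomerase (CHS, CHI), then dihydroflavonol reductase, anthocyanidin synthase and anthocyanidin reductase (DFR, ANS, ANR).

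Each array had been scaled to the same mean by the authors. Across the soybean probe sets tested, log2 signals correlated at r = 0.955 between the 2 palisade arrays, 0.920 between the 2 hourglass arrays and 0.776 to 0.806 between arrays of different layers. The layers were not alike in technical measures. The level of the hybridization controls, relative to its median over the 34 arrays, was 0.759 and 0.610 in the palisade against 1.16 and 1.05 in the hourglass layer. The background, taken as the 95th percentile of the probe sets for the pathogens Phytophthora sojae and Heterodera glycines, was 134 and 132 in the palisade and 184 and 152 in the hourglass layer. With the control level as a covariate, 3345 probe sets were called higher and 2528 lower in the palisade, and 5276 of the 6311 main calls remained. Markers of other tissues are given beside the results they move with. Hourglass replicate 2 held more storage protein signal than the other 3 arrays, and calls are given without it where it decides them.

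The 4 genes given as markers of the layers, with Ep, were read first. As the 4 may have been chosen with earlier results of these data known, they are not an independent check of the labels. DFR1, a dihydroflavonol reductase, had signals of 44344 and 40164 in the palisade and 7099 and 2455 in the hourglass layer. ANR1, the anthocyanidin reductase that makes epicatechin for proanthocyanidins, had 45825 and 43602 in the palisade and 5952 and 3007 in the hourglass layer. Where a pair of signals is set against another here and below, the palisade pair comes first, replicate 1 before replicate 2. Both genes were high in both palisade arrays and lower, though far above background, in both hourglass arrays. Ep, the seed coat peroxidase gene, had 1309.5 and 2649 against 38706 and 40376. It was also bright in the seed coat parenchyma, at 22405 and 26007, so it does not mark the hourglass layer alone. SCB1, a cell wall protein with a BURP domain, had 11573 and 13675 against 104546 and 83389.8, and MYB48, a MYB-family transcription factor, had 327 and 536 against 35409 and 22055. For these 3 genes the hourglass arrays were the higher ones, with no overlap between the layers. In dissected tissue, fewer cells of a type and less RNA per cell cannot be told apart. The log2 difference, palisade minus hourglass, was 3.33 ± 0.85 for DFR1 (SE, n = 2 arrays a layer here and below, adjusted p = 0.00435), 3.40 ± 0.68 for ANR1 (adjusted p = 0.000448), -4.40 ± 0.50 for Ep (adjusted p = 1.86e-07), -2.89 ± 0.84 for SCB1 (adjusted p = 0.0115) and -6.01 ± 0.73 for MYB48 (adjusted p = 5.58e-07). The DFR1 call was lost without hourglass replicate 2 (log2 2.57, adjusted p = 0.0895), and the SCB1 call without palisade replicate 1 (-2.77, adjusted p = 0.0764) or hourglass replicate 1 (-2.73, adjusted p = 0.071). Among general seed coat markers, AGL1L, IFR1, SEP1 and MYB73 were above background on all 4 arrays.

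The layers differed at 6311 of the 28441 soybean probe sets tested (22.2%). A call needed a limma p under 0.05, adjusted over all tested, together with a log2 difference of 1 or more in either direction. The palisade was higher at 3608 (12.7%) and lower at 2703 (9.5%). Which direction held more calls depended on scaling: scaling each array to its 75th percentile gave 2872 higher and 3188 lower, and moved the median difference over all probe sets from 0.14 to -0.04. The fitted differences had a median size of 2.39 on the log2 scale toward the hourglass layer and 1.92 toward the palisade, and a size of 4 was passed by 467 and 225 probe sets. Over the 1569 and 2152 calls whose dimmer layer was above background on both arrays, the medians were 2.00 and 1.60, and 175 and 71 passed a size of 4. In 953 of the palisade-high calls neither hourglass array was above background, and in 847 of the hourglass-high calls neither palisade array was.

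**Figure D1:**
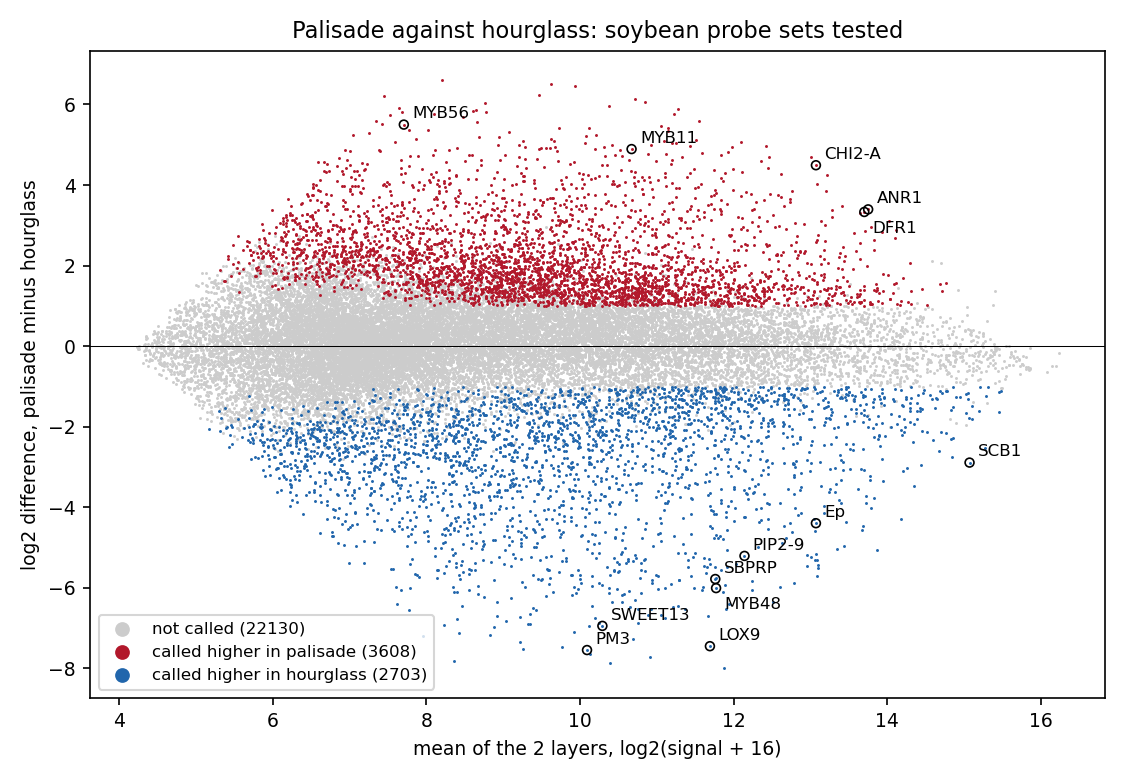
Log2 difference (palisade minus hourglass) against the mean log2(signal + 16) of the layers for the 28441 soybean probe sets tested, 1 point each, red where called higher in the palisade (3608) and blue where called higher in the hourglass layer (2703). Circled genes run from MYB56 at 5.50 to PM3 at -7.54, both with the dimmer layer below background, and the blue points reach farther from 0 than the red.

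Only part of the array could be named: 887 tested genes had an informative symbol, each read by its brightest probe set. Of these, 260 were called (29.3%), with 109 higher in the palisade (12.3%) and 151 lower (17%). These 12.3% and 17% are the shares to set beside each list count below, and no result about a list is read from a count near them. The median log2 difference over these genes was -0.15. The gene lists used below hold 416 of them, of which 133 were called (32%), 47 higher in the palisade (11.3%) and 86 lower (20.7%). Large differences were also found on probe sets without an informative symbol. A probe set tied to LOC100101848 had signals of 224 and 213 in the palisade and 60921 and 59150.0 in the hourglass layer, a log2 difference of -8.00.

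The genes listed for the proanthocyanidin and anthocyanin branch were all higher in the palisade: 5 of 5 tested were called, with a median log2 difference of 3.33. UGT78K1, a flavonoid glucosyltransferase gene called lower in the palisade, was listed with the earlier steps below and is not in this count. DFR1 and ANR1 are given above. ANS2, an anthocyanidin synthase, had signals of 55334 and 43129.5 in the palisade and 9448 and 3369 in the hourglass layer, and was 8.63-fold higher in the palisade (3.11 ± 0.67, adjusted p = 0.00099). DFR2, a second dihydroflavonol reductase, had 2812 and 4173 in the palisade and 351 and 51.7 in the hourglass layer, and was at least 13.9-fold higher (4.45 ± 0.72, adjusted p = 3.71e-05). LAR1, leucoanthocyanidin reductase, which makes catechin, had 10150.3 and 8812 against 2891 and 1099 (2.40 ± 0.75, adjusted p = 0.0188). In each of the 5 genes hourglass replicate 1 was brighter than hourglass replicate 2, and both lay below both palisade arrays. Without hourglass replicate 2, DFR1 and LAR1 were no longer called, which left 3 of the 5. LAR1 also lost its call without either palisade array (adjusted p = 0.108 and 0.071), with a pseudocount of 1 (0.0877) and with the control level as covariate (0.0744). A fold written "at least" is a lower bound, used where at most 1 of the 2 arrays of the dimmer layer was above background, with the signals below raised to it. The log2 difference printed beside such a fold is the fitted one and is not a bound.

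A list of 10 genes held the earlier steps, shared by flavonoids in general, and the glucosyltransferase gene UGT78K1, which is not an early step. Of these, 5 were called higher in the palisade and 1 lower. The 5 higher ones were called with each of the 4 arrays left out in turn. CHI2-A, a chalcone isomerase, was the largest, at 45269 and 36491 in the palisade and 2253 and 1422 in the hourglass layer, 22.5-fold higher in the palisade (4.49 ± 0.45, adjusted p = 2.69e-08). The chalcone synthase gene CHS1 had 14923 and 11733 in the palisade and 859 and 925 in the hourglass layer (3.87 ± 0.64, adjusted p = 4.92e-05), and CHS8 had 6804 and 5652 against 841 and 652 (3.04 ± 0.47, adjusted p = 2.03e-05). Each of these 3 genes had its highest mean of all 16 compartments in the palisade. CHI1A (2.54 ± 0.42) and CHI4A (1.55 ± 0.27) were also called higher. CHI4A stood at 20312 and 11502 in the hourglass arrays, the smallest of the 5 differences. The exception was UGT78K1, a flavonoid glucosyltransferase, whose palisade signals were 70.9 and 98.8 and hourglass signals 179 and 1258. Of those 4 values 1 was above background, hourglass replicate 2, and without that array the call was lost (-0.97, adjusted p = 0.241). The 4 genes not called ranged from -0.83 to 0.31.

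Of 8 genes listed for phenylpropanoid and lignin synthesis, 4 were called higher in the palisade and 1 lower. The 3 not called ranged from -1.30 to -0.01, all on the hourglass side. The 4-coumarate:CoA ligase gene 4CL3 had signals of 10335 and 9494 in the palisade and 599 and 198 in the hourglass layer, and was 27.4-fold higher (4.77 ± 0.72, adjusted p = 1.47e-05). A second ligase gene, 4CL4, had 17989 and 17119 in the palisade and 1070.0 and 1516 in the hourglass layer (3.77 ± 0.49, adjusted p = 1.78e-06). C4H, cinnamate 4-hydroxylase, had 20244 and 14697 against 1946 and 1063 (3.57 ± 0.59, adjusted p = 4.39e-05). All 3 were highest in the palisade among the 16 compartments. 4CL2 was dimmer and its call less stable (at least 3.82-fold higher, adjusted p = 0.0352, lost in 6 of 17 alternatives). SOMT-9, an O-methyltransferase, was called lower (-2.33 ± 0.80) on the probe set used, with signals of 9.8 and 13.9 in the palisade and 67.5 and 219 in the hourglass layer. That call was lost in 8 of the 17. Other probe sets of SOMT-9, brighter in these layers, were not called (log2 0.29, adjusted p = 0.568, and 0.23, adjusted p = 0.762), so no difference is read for this gene. CYP98A2 belongs to the P450 family that hydroxylates coumaroyl esters on the way to lignin monomers, and ran the other way. Its signals were 191 and 241 against 7061 and 5013, 25.9-fold higher in the hourglass layer (-4.69 ± 0.54, adjusted p = 2.65e-07).

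**Figure D2:**
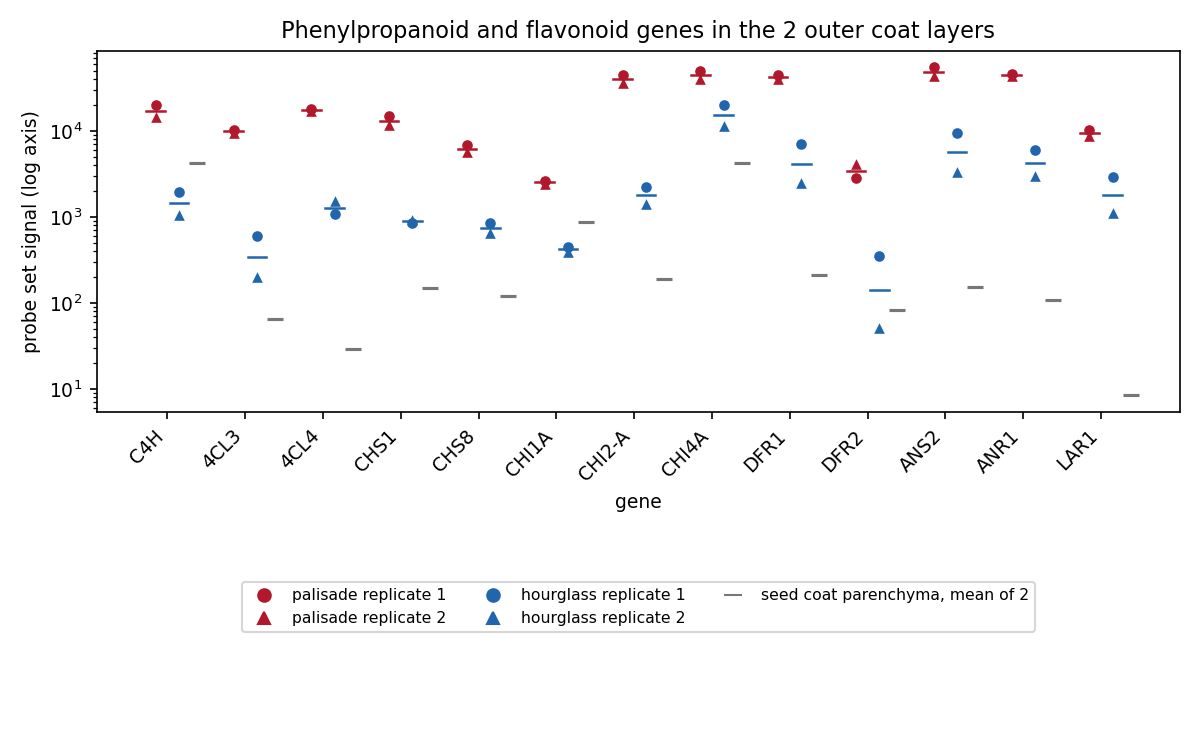
Probe set signal (log axis) of 13 phenylpropanoid and flavonoid genes called higher in the palisade, on each palisade (red) and hourglass (blue) array. Short bars mark the layer means of the log2 values, and a grey dash the mean of the seed coat parenchyma. For every gene both palisade arrays lie above both hourglass arrays, which describes genes already called and is no further result. CHI4A is the closest, at 49597 and 40422 against 20312 and 11502. UGT78K1, SOMT-9 and CYP98A2, called lower in the palisade, are not shown. Genes of these lists that were not called, and 4CL2, are also left out.

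The isoflavonoid branch makes legume defence compounds from the same precursors. Of 14 genes, 2 were called higher in the palisade and 1 lower, against 12.3% and 17% over all genes with a symbol, and no result about the branch is read from this count. The other 11 ranged from -1.27 to 1.03. IFR1, named for isoflavone reductase, had signals of 2511 and 2821 in the palisade and 68362 and 58749 in the hourglass layer, 23.7-fold higher in the hourglass layer (-4.57 ± 0.90, adjusted p = 0.000358). HIDH, 2-hydroxyisoflavanone dehydratase, had 22728 and 21442 in the palisade and 4241 and 1691 in the hourglass layer (3.03 ± 0.96, adjusted p = 0.0205), and IFR2 had 33821 and 31861 against 12203 and 12972 (1.38 ± 0.46, adjusted p = 0.0286). The HIDH call was lost without palisade replicate 1, palisade replicate 2 or hourglass replicate 2 (adjusted p = 0.0975, 0.0813 and 0.184), and the IFR2 call when any of the 4 arrays was left out (0.0929 to 0.129).

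Some of the largest palisade calls among genes with a symbol were in transcription factors. These are ordered by the fitted log2 difference, which is not a measured size where the dimmer layer lies below background. MYB56 had signals of 1251 and 1539 in the palisade and 12.1 and 18.2 in the hourglass layer, and neither hourglass array was above background, so it was at least 7.67-fold higher in the palisade (5.50 ± 0.75, adjusted p = 3.75e-06). MYB11, of the same MYB family, had 8029.8 and 9720.3 in the palisade and 397 and 199 in the hourglass layer, 29.7-fold higher (4.89 ± 0.54, adjusted p = 1.37e-07). WRKY29 had 2519 and 2809 against 79.1 and 199, at least 12.9-fold higher (4.23 ± 0.63, adjusted p = 1.17e-05). Each of these factors was highest of all compartments in the palisade. Outside the palisade MYB11 was brightest in the hilum, the scar where the seed was attached, at a mean of 6311, against 79 in the seed coat parenchyma. PTF1, at 811 and 959 against 24.9 and 36.3, and BES1-12, of the BES1 family that responds to brassinosteroid, at 2573 and 2499.6 against 110.0 and 157, were also among the 12 with the largest fitted differences (4.28 ± 0.83 and 4.11 ± 0.46). As bounds they were at least 4.91-fold and at least 13.7-fold higher.

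The rest of the 12 palisade genes with the largest fitted differences included enzymes of primary metabolism. SSH2, of the Sec14 family of phosphatidylinositol transfer proteins, had signals of 21394 and 19651 in the palisade and 1249 and 407 in the hourglass layer, 28.1-fold higher in the palisade (4.81 ± 0.72, adjusted p = 1.29e-05), and its parenchyma mean was 7.8. G6PDH, glucose-6-phosphate dehydrogenase, an NADPH-forming enzyme, had 9917 and 9138 in the palisade and 633 and 493 in the hourglass layer, 16.6-fold higher (4.05 ± 0.32, adjusted p = 4.69e-10). Its palisade mean was the highest and its hourglass mean the lowest of the 16 compartments. ACSL2, a long-chain acyl-CoA synthetase, had 456 and 749 against 34.4 and 7.3, at least 3.29-fold higher (fitted 4.13 ± 0.90, adjusted p = 0.00108). ACS1 varied between replicates, with 266 and 1268 in the palisade and 22.6 and 6.4 in the hourglass layer, at least 3.29-fold higher (fitted 4.35 ± 1.03, adjusted p = 0.00231), and its call was lost without palisade replicate 2 (3.26, adjusted p = 0.0725).

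The cell wall genes that were called lay on the hourglass side. Of 12 genes for cell wall proteins and enzymes, 4 were called higher in the hourglass layer, and the other 8 ranged from -1.42 to 0.52. SBPRP, a proline-rich protein gene, had signals of 480.1 and 423 in the palisade and 26563 and 24790.3 in the hourglass layer, 55-fold higher in the hourglass layer (-5.78 ± 0.33, adjusted p = 1.78e-12). EXP4, an expansin of the family that loosens walls, had 115 and 216 in the palisade and 4011 and 4237 in the hourglass layer, at least 22.2-fold higher (-4.57 ± 0.55, adjusted p = 4.85e-07). CEL12 had 4108 and 5647 against 29150.4 and 27115, 5.82-fold higher (-2.54 ± 0.35, adjusted p = 4.65e-06). SCB1, given above, is the fourth. All 4 were highest of the 16 compartments in the hourglass layer, and SBPRP (mean 19666) and SCB1 (59161) were also bright in the parenchyma beneath it.

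Peroxidases were divided by gene. Of 7 peroxidase and laccase genes 3 were higher in the hourglass layer and 2 in the palisade. Ep had the largest difference, 21-fold. PRX2 had signals of 21666 and 21423 in the palisade and 56807 and 50704 in the hourglass layer and PRX2B 12442 and 12079.5 in the palisade and 38778 and 36448 in the hourglass layer, both bright in both layers and 2.49-fold and 3.06-fold higher in the hourglass layer. With quantile normalization PRX2 was just under the log2 threshold of 1 (-0.95, adjusted p = 0.000227). PRX3 ran the other way, at 1009 and 1010.0 against 192 and 262 (2.09 ± 0.39, adjusted p = 0.000176), though its mean in the hilum was 16305. PRX4 was called higher in the palisade as well (1.21 ± 0.37, adjusted p = 0.0172), and was lost in 5 of the 17 alternatives.

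Of 11 sugar transport genes, 2 were called, both SWEET genes higher in the hourglass layer. SWEET proteins export sugar across membranes, and SWEET13 had signals of 31.1 and 256 in the palisade and 13441 and 14395 in the hourglass layer, at least 69-fold higher in the hourglass layer (-6.94 ± 0.57, adjusted p = 1.03e-09). SWEET24 had 200.3 and 128 in the palisade and 6795 and 19509 in the hourglass layer, at least 64.5-fold higher (-6.03 ± 0.71, adjusted p = 3.57e-07). SWEET13 was highest of all compartments in the hourglass layer, whereas SWEET24 was brighter still in the aleurone (mean 69414) and the parenchyma (39503). The other 9 ranged from -1.37 to 0.12, so the share called was near that over all genes with a symbol. Without hourglass replicate 1, 4 of the 11 were called in this direction.

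Cytosolic glutamine synthetase, which fixes ammonium into glutamine, was represented by a pair of genes. GS1-GAMMA had signals of 1657 and 927 in the palisade and 32903 and 35239 in the hourglass layer, 27.1-fold higher in the hourglass layer (-4.76 ± 0.49, adjusted p = 4.59e-08), and GS1GAMMA2 had 269.9 and 199 in the palisade and 8147 and 9457 in the hourglass layer, 35.5-fold higher (-5.15 ± 0.65, adjusted p = 9.85e-07). Neither gene overlapped between the layers. AS2, an asparagine synthetase, was low in both, at 2 and 3.8 against 273 and 169.8, at least 1.56-fold higher in the hourglass layer (fitted -3.62 ± 0.67, adjusted p = 0.000181), and far brighter in the parenchyma (mean 2936). NRT1-3, of the nitrate transporter family, had 5842 and 11069.8 against 27439.5 and 33724 (-1.92 ± 0.53, adjusted p = 0.00883). Its call was lost without palisade replicate 1 (-1.46, adjusted p = 0.145) or hourglass replicate 2 (-1.77, adjusted p = 0.0693). In all, 4 of 9 nitrogen genes were called higher in the hourglass layer, with a median of -1.81 over the 9 against -0.15 over all genes with a symbol. With genes at their bound where 1 layer was dim, these medians were -0.64 and -0.09.

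Aquaporins, the water channels, were divided by member. Of 18 tested, 4 were higher in the hourglass layer and 2 in the palisade, against 17% and 12.3% over all genes with a symbol. No result about the family is read from this count. The other 12 ranged from -1.31 to 0.75. PIP2-9 had signals of 692 and 761 in the palisade and 27565 and 27191 in the hourglass layer, 36.9-fold higher in the hourglass layer (-5.21 ± 0.58, adjusted p = 1.56e-07). PIP2-10 had 50.5 and 80.5 in the palisade and 2278 and 2269.8 in the hourglass layer, at least 15.4-fold higher (-4.84 ± 0.63, adjusted p = 1.6e-06). PIP2-6, bright everywhere in the coat, had 15143 and 11382 against 67568 and 61607 (-2.30 ± 0.32), and PIP1-10 had 1689.7 and 2334 against 8261 and 8483 (-2.07 ± 0.25). These 4 calls held with each of the 4 arrays left out. PIP2-1 was higher in the palisade, at 19618 and 14207 against 5265 and 4546 (1.77 ± 0.22, adjusted p = 6.28e-07), but a second probe set of that gene was called the other way (-1.39, adjusted p = 0.0425). PIP1-4 was the second palisade call, near background (180.1 and 171 against 58.2 and 18.4), and was lost without hourglass replicate 2 (1.37, adjusted p = 0.0841).

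**Figure D3:**
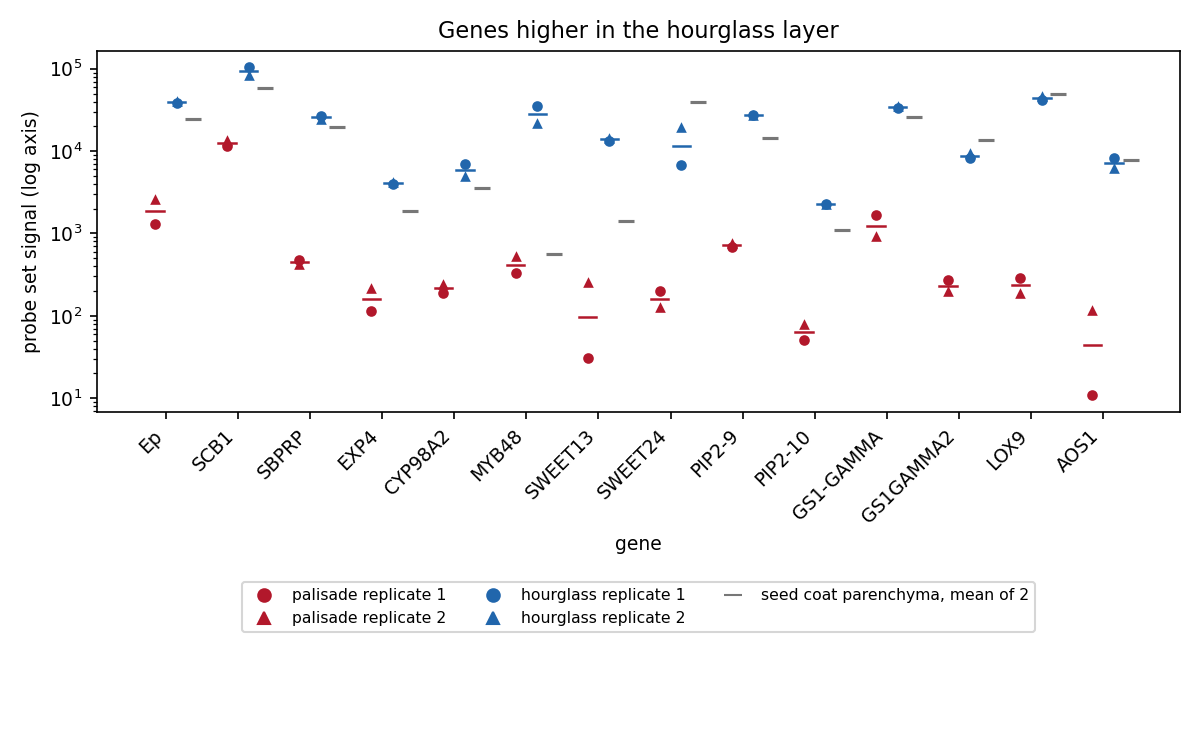
Probe set signal (log axis) of 14 genes called higher in the hourglass layer, on each palisade array (red) and each hourglass array (blue), with short bars at the layer means of the log2 values and a grey dash at the mean of the seed coat parenchyma. No gene overlaps between layers, which describes genes already called and is no further result. The parenchyma lies near the hourglass arrays for LOX9 but near the palisade arrays for MYB48.

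Some genes of the oxylipin pathway, which turns polyunsaturated fatty acids into jasmonate and related signals, were much higher in the hourglass layer. LOX9, a lipoxygenase, had signals of 289 and 190.0 in the palisade and 41175 and 46445 in the hourglass layer, 175-fold higher in the hourglass layer (-7.45 ± 0.42, adjusted p = 1.67e-12). AOS1, allene oxide synthase, which acts on lipoxygenase products in jasmonate synthesis, had 10.8 and 117 in the palisade and 8227 and 6166 in the hourglass layer, at least 48-fold higher (-6.90 ± 0.58, adjusted p = 1.35e-09). Their parenchyma means, 48679 and 7736, were near their hourglass signals. LOX7 (-3.40 ± 0.76, adjusted p = 0.0013) and VLXB (-2.23 ± 0.45, adjusted p = 0.000453), a vegetative lipoxygenase, were also higher in the hourglass layer. With LOX3, 4 of 9 lipoxygenases were called in this direction, and LOX3 rested on hourglass replicate 2 (268 and 24.1 against 254 and 3564). The 1 call toward the palisade, LOX1.1, had signals of 98.6 and 144 and 11.2 and 16, with a single array above background.

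Fatty acid desaturases were divided by gene. Among 15 fatty acid genes, 3 were higher in the palisade and 4 in the hourglass layer, against 12.3% and 17% over all genes with a symbol. FAD2-2, a microsomal oleate desaturase, had 44868 and 41522 in the palisade and 18591 and 14855 in the hourglass layer, 2.6-fold higher in the palisade (1.38 ± 0.20, adjusted p = 6.74e-06). FAD3B, a microsomal linoleate desaturase, had 777 and 1004 in the palisade and 254 and 260.1 in the hourglass layer (1.72 ± 0.38, adjusted p = 0.0013). The plastid desaturase genes were higher in the hourglass layer: FAD7-2 had 155 and 287 against 2698 and 1870.3 (-3.31 ± 0.63, adjusted p = 0.00026), and FAD8.2 had 1059 and 1032 against 4355 and 5769.8 (-2.24 ± 0.52, adjusted p = 0.00188). So was FAD2-1A, like FAD2-2 a microsomal oleate desaturase, with 26.2 and 70.5 against 299 and 1229.7, at least 4.21-fold higher (-3.37 ± 0.60, adjusted p = 0.000113). FAD2-1A is also among the embryo markers given below. SACPD-C, a stearoyl-ACP desaturase, was the fourth (-1.73 ± 0.33, adjusted p = 0.00027). FAD3C, the third gene higher in the palisade, had 205 and 398 against 24.1 and 157 and lost its call in 4 of the 17 alternatives.

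Of 18 hormone genes, 5 were higher in the hourglass layer and 1 (ACS1) in the palisade. The factor ERF6, of the ethylene response family, had signals of 138 and 176 in the palisade and 1575 and 1873 in the hourglass layer, 10.1-fold higher (-3.33 ± 0.45, adjusted p = 3.45e-06). GA2OX8, of the enzymes that inactivate gibberellin, had 67.6 and 122 in the palisade and 979 and 483 in the hourglass layer (fitted -2.72 ± 0.51, adjusted p = 0.000208), and CKX3, of the oxidases that degrade cytokinin, had 81.2 and 73.6 against 630.1 and 543 (fitted -2.69 ± 0.70, adjusted p = 0.00509). Neither was above background in the palisade, so they were at least 4.73-fold and at least 4.04-fold higher. DREB was 3.04-fold higher and GA20OX3 was below background on all 4 arrays. CYP90A15, of a P450 family of brassinosteroid synthesis, had 124 and 123 against 2637 and 1857, at least 15-fold higher in the hourglass layer (-4.00 ± 0.54, adjusted p = 2.68e-06). In all, 4 of 18 P450 genes were called, each higher in the hourglass layer.

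The GASA family of small gibberellin-regulated peptides had members on both sides. GASA33 had signals of 10861 and 13324 in the palisade and 1134 and 713 in the hourglass layer, 13.2-fold higher in the palisade (3.72 ± 0.44, adjusted p = 3.8e-07). GASA3 had 233 and 187 in the palisade and 3157 and 2272 in the hourglass layer, 12-fold higher in the hourglass layer (-3.58 ± 0.40, adjusted p = 1.75e-07), and GASA29 had 391 and 387 against 1929.8 and 3834 (-2.76 ± 0.49, adjusted p = 0.000124). GASA9 was bright in both layers, at 24842 and 17620.4 against 62763 and 55179 (-1.49 ± 0.35, adjusted p = 0.00227). In all, 5 of 16 were called higher in the hourglass layer and 1 in the palisade. The hourglass count was 3 without either palisade array or hourglass replicate 2. The remaining pair, GASA22 and GASA34, lost their calls in 9 and 8 of the 17 alternatives.

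Transcription factor families were also divided between the layers. Of 50 MYB genes 8 were higher in the palisade and 5 in the hourglass layer, and of 37 WRKY genes 4 and 3. Among 47 bZIP genes 3 were higher in the palisade and 9 in the hourglass layer, and among 13 NAC genes 1 and 3. Over all genes with a symbol 12.3% were higher in the palisade and 17% in the hourglass layer. The family counts lie on both sides of these shares, and no result about a family is read from them. BZIP126 had signals of 903 and 1199 in the palisade and 15712 and 14411 in the hourglass layer, 14.3-fold higher in the hourglass layer (-3.83 ± 0.31, adjusted p = 7.02e-10). MYB75 had 3.9 and 61.1 in the palisade and 507 and 1669 in the hourglass layer, at least 6.31-fold higher (-4.58 ± 0.82, adjusted p = 0.000124), and NAC14 339 and 262 against 4385 and 3422 (-3.63 ± 0.71, adjusted p = 0.000357), both without overlap. WRKY24 was higher in the palisade (2505 and 2705 against 788 and 990.4, 1.54 ± 0.30, adjusted p = 0.000278). WRKY33 was higher in the hourglass layer on its brightest probe set (-2.20 ± 0.44) and higher in the palisade on a second one (1.86, adjusted p = 0.00864). These counts depended on single arrays. The MYB palisade count was 4 without either palisade array or hourglass replicate 2, and the MYB hourglass count was 2 without palisade replicate 1 and 3 without hourglass replicate 1. The WRKY counts were 2 and 1 without either palisade array, and the WRKY hourglass count was 1 without hourglass replicate 2. The bZIP palisade count was 1 without hourglass replicate 1, and the NAC hourglass count was 1 without palisade replicate 1 or hourglass replicate 2. The 1 NAC call in the palisade was lost without palisade replicate 2 or hourglass replicate 1. MYB172 had 45919 and 36937 against 13311 and 7360.2 (2.06 ± 0.58, adjusted p = 0.00954), and lost its call without palisade replicate 1 (adjusted p = 0.0799) or hourglass replicate 2 (0.122).

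Glutathione transferases had members on both sides too, with 3 of 22 higher in the palisade and 5 in the hourglass layer. Over all genes with a symbol the shares were 12.3% and 17%, and no result about the family is read from this count. GSTU13 had 2875 and 3008 in the palisade and 321 and 337 in the hourglass layer, 8.58-fold higher in the palisade (3.10 ± 0.45, adjusted p = 7.36e-06), and GSTU37 had 269 and 235 in the palisade and 1615 and 1467 in the hourglass layer, 5.81-fold higher in the hourglass layer (-2.54 ± 0.47, adjusted p = 0.000181). Neither gene overlapped between the layers. The hourglass count of 5 was not stable: it was 1 without palisade replicate 1, 3 without palisade replicate 2 and 2 without hourglass replicate 2, and GSTZ3, GSTU41, GH and GSTF7 lost their calls in the first of these.

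Further members of the 12 hourglass genes with the largest fitted differences came from other roles. PSK3, a precursor of the peptide hormone phytosulfokine, had signals of 114 and 97.1 in the palisade and 10008 and 11334 in the hourglass layer, at least 71.7-fold higher in the hourglass layer (-6.46 ± 0.73, adjusted p = 2.01e-07). ADH2, an alcohol dehydrogenase of anaerobic metabolism, had 498 and 427 in the palisade and 23919.7 and 27387 in the hourglass layer, 53.6-fold higher (-5.75 ± 0.31, adjusted p = 4.97e-13). ZEP, zeaxanthin epoxidase, which makes precursors of abscisic acid, had 12 and 70.4 against 1499 and 2619, at least 13.4-fold higher (-5.34 ± 0.47, adjusted p = 3.13e-09). ADH2 was highest of all compartments in the hourglass layer and lowest in the palisade. ASP1 had 224 and 359 against 15785 and 20411 (-5.91 ± 0.42, adjusted p = 9.12e-11). The gene listed as H4 had 21.5 and 12 against 1579 and 7744, at least 23.6-fold higher (-6.76 ± 0.98, adjusted p = 7.54e-06), and its aleurone mean was 56558.

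**Figure D4:**
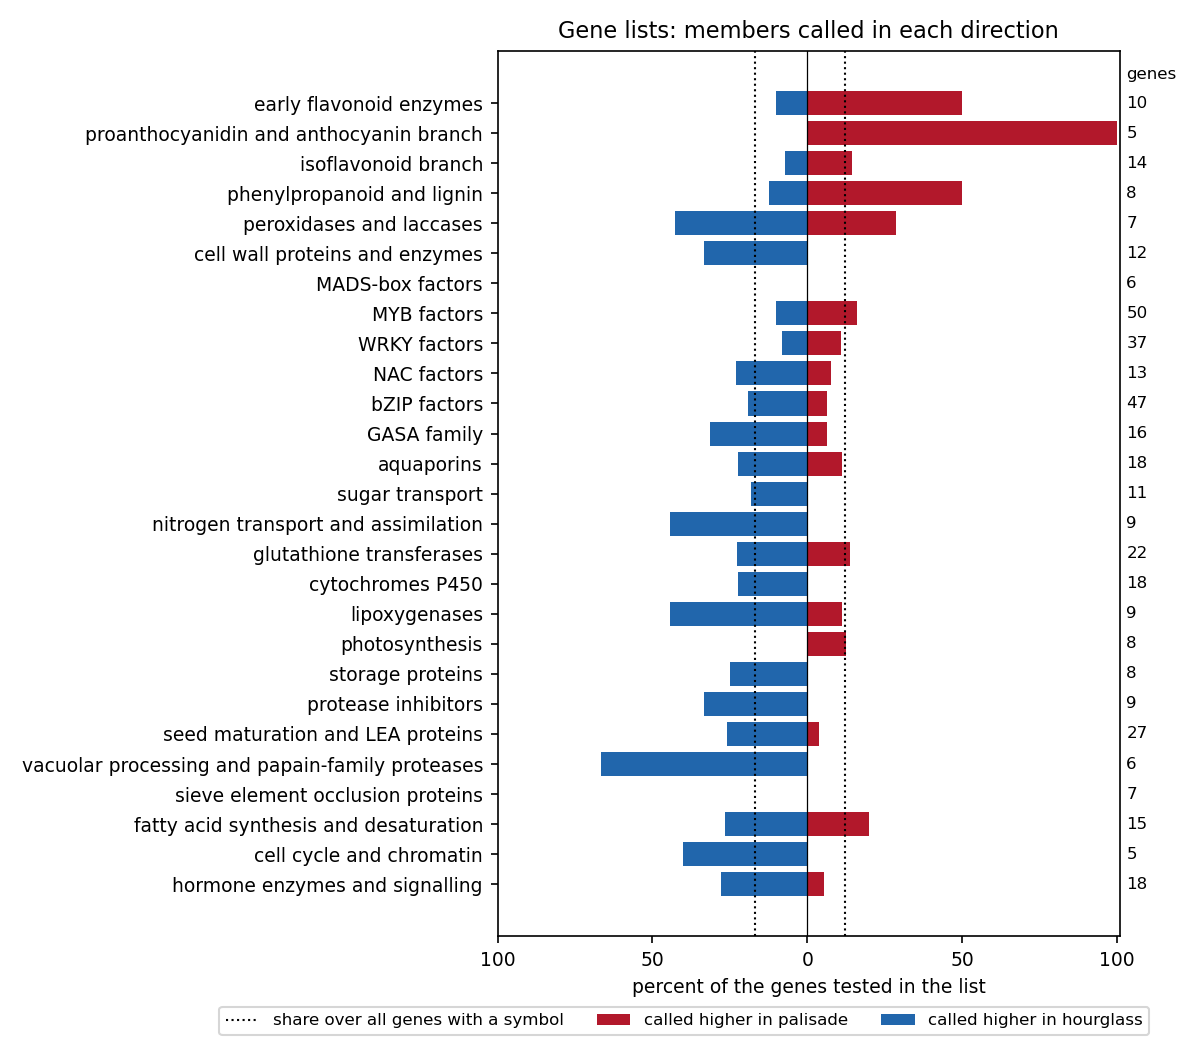
Percent of the tested genes of each list called higher in the palisade (red, right) and higher in the hourglass layer (blue, left), for the lists with at least 5 genes tested, with the number tested at the right edge. Dotted lines mark the shares over all 887 genes with a symbol, 12.3% and 17%. The list for the proanthocyanidin and anthocyanin branch, which leaves out UGT78K1, is called in full on the palisade side (5 of 5 genes). The list of vacuolar processing and papain-family proteases has the longest bar on the hourglass side (4 of 6). Each of those 4 calls is lost in 2 to 9 of the 17 alternatives.

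Several genes of the maturing embryo were also brighter in the hourglass samples, mostly in 1 of them. Among the markers listed next, LOX1.1 was called higher in the palisade, at 98.6 and 144 against 11.2 and 16, with 1 array above background. KTI3 was not called, at 152 and 78.2 against 391 and 327. The summed signal of 7 embryo markers (GY1, GY2, KTI3, LOX1.1, GM2S-1, CG-1 and FAD2-1A) was 948 and 748 in the palisade arrays and 2428 and 12948 in the hourglass arrays, against 11534 to 262322 in the 22 embryo arrays. GY1, a glycinin storage globulin, had signals of 116 and 67.4 in the palisade and 574 and 4659 in the hourglass layer, at least 11.2-fold higher in the hourglass layer (-3.99 ± 0.94, adjusted p = 0.00218), and GY2 had 541 and 299 in the palisade and 1121 and 5179 in the hourglass layer (-2.54 ± 0.57, adjusted p = 0.00132). GM2S-1, a 2S albumin, had 4 and 73.7 against 25.1 and 1461 and was not called, though it was in 7 of the 17 alternatives, and CG-1 was below background on all 4 arrays. Among 8 storage protein genes 2 were called, both higher in the hourglass layer, and without hourglass replicate 2 the count was 0 (GY1 -2.49, adjusted p = 0.109; GY2 -1.44, adjusted p = 0.101). Without hourglass replicate 1 it was 4. Over the 8 genes, 3 had an unadjusted limma p under 0.05 on all arrays. The part of embryo RNA in these differences was not tested.

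Seed maturation proteins followed the same arrays in part. Of 27 genes 7 were higher in the hourglass layer and 1 in the palisade, with 3 left in the hourglass layer without hourglass replicate 2 and 4 without palisade replicate 1. The 1 palisade call, PGMPM10, was lost without palisade replicate 2 or either hourglass array. PM12 had 9.3 and 161 in the palisade and 344 and 2147 in the hourglass layer, and lost its call without that array (-2.43, adjusted p = 0.195). PM3 did not follow it: its signals were 49.4 and 81.9 in the palisade and 22152 and 10047 in the hourglass layer, the brighter in hourglass replicate 1, at least 100-fold higher in the hourglass layer (-7.54 ± 0.52, adjusted p = 4.05e-11). PM40 (64.8 and 119 against 426 and 1104) and PM30 (16.4 and 79.4 against 259.8 and 732) were also called, at least 4.73-fold and at least 3.05-fold higher. P34, a papain-family seed vacuole protein, had 415 and 470.4 against 1432 and 7585, and D-II, a Bowman-Birk type protease inhibitor, had 125 and 284 against 888 and 4753. Both lost their calls without hourglass replicate 2 (adjusted p = 0.255 and 0.169). In the lists they belong to, 4 of 6 vacuolar processing and papain-family proteases and 3 of 9 protease inhibitors were called, all higher in the hourglass layer, which fell to 2 and 1 without that array. The protease count was 2 with any 1 of the 4 arrays left out: VPE, VPE2, CP3 and P34 lost their calls in 5, 9, 3 and 2 of the 17 alternatives. The inhibitor count was 1 without either palisade array as well. MFT, listed as an aleurone marker, was also brightest in hourglass replicate 2, at 84.4 and 71.6 against 117 and 453, with a mean of 12549 in the aleurone. Embryo arrays ranged from 222 (axis vascular bundle) to 22195 (cotyledon abaxial parenchyma), so MFT is not particular to the aleurone.

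Genes listed as markers of vascular tissue were low in both layers apart from MYB172. In the palisade MYB172 alone, at 45919 and 36937, exceeded the summed list on the axis and cotyledon vascular bundle arrays (at most 18638 and 9070). It is therefore not read as a vascular marker here. Of 9 such markers 1 and 3 were above background on the palisade arrays and 2 and 4 on the hourglass arrays. The seed coat parenchyma arrays had 8 and 8, the cotyledon vascular bundle arrays 4 and 6 and the axis vascular bundle arrays 2 and 4. The hourglass counts equal those of the axis vascular bundle, so these counts cannot tell how much vascular tissue a layer held. None of the 7 sieve element occlusion genes was called by limma, and 1, SEOA, had an unadjusted p under 0.05. SEOA (-2.55, adjusted p = 0.0649) was called higher in the hourglass layer in 5 of the 17 alternatives. BZIP16 was called higher in the hourglass layer (fitted -3.41, adjusted p = 0.00138), at 14.8 and 75.9 against 825 and 366, with a parenchyma mean of 14288. Only its hourglass signals were above background, and the call was lost without palisade replicate 1 (-2.62). Of 8 photosynthesis genes 1 was called, RCA11, a Rubisco activase gene, at 1649.5 and 1787 in the palisade and 435 and 343 in the hourglass layer (2.11 ± 0.47, adjusted p = 0.00135). No MADS-box factor of 6 was called by limma, with 1 at an unadjusted p under 0.05, and they ranged from -1.40 to 1.64. AGL1L, of that family, had 9698 and 13374 in the palisade and 19286 and 23186 in the hourglass layer (-0.89 ± 0.90, adjusted p = 0.549). Saponin genes had 2 of 4 called, CYP72A67 and SGT2, both lower in the palisade and brighter in the parenchyma (means of 9259.6 and 9332) than in either layer. Among 5 cell cycle and chromatin genes TUBB3, a tubulin, was called higher in the hourglass layer (14108 and 10944 against 32352 and 27775, -1.27 ± 0.19, adjusted p = 1.57e-05), beside H4.

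The layers also differed in where their genes were brightest among the 16 compartments. Of the 3608 probe sets higher in the palisade, 836 (23.2%) had their highest mean in the palisade and 420 in the axis shoot meristem, the next most frequent. Of the 2703 higher in the hourglass layer, 1305 (48.3%) had their highest mean there, followed by 311 in the seed coat parenchyma. Over all probe sets tested the shares were 6.79% for the palisade and 9.75% for the hourglass layer. The calls require 1 layer to exceed the other, so these shares had to be above those over all probe sets, and they are given as a description.

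The other coat layers were set against the pair by which layer mean they lay nearer to. Among the probe sets higher in the hourglass layer, the seed coat parenchyma lay nearer to the hourglass layer than to the palisade at 52.6%, against 46% over all tested. The hilum and the aleurone lay nearer to the hourglass layer at 42.8% and 42.7% of them, against 46.3% and 44.2% over all. For probe sets higher in the palisade, the aleurone lay nearer to the palisade at 61.8%, the parenchyma at 59.8% and the hilum at 58.7%, against 55.8%, 54.0% and 53.7% over all. Over all probe sets, the layer means correlated at r = 0.817 between palisade and hourglass, 0.853 between palisade and hilum, 0.830 between hourglass and hilum and 0.828 between hourglass and parenchyma (28441 probe sets, which share their arrays).

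**Figure D5:**
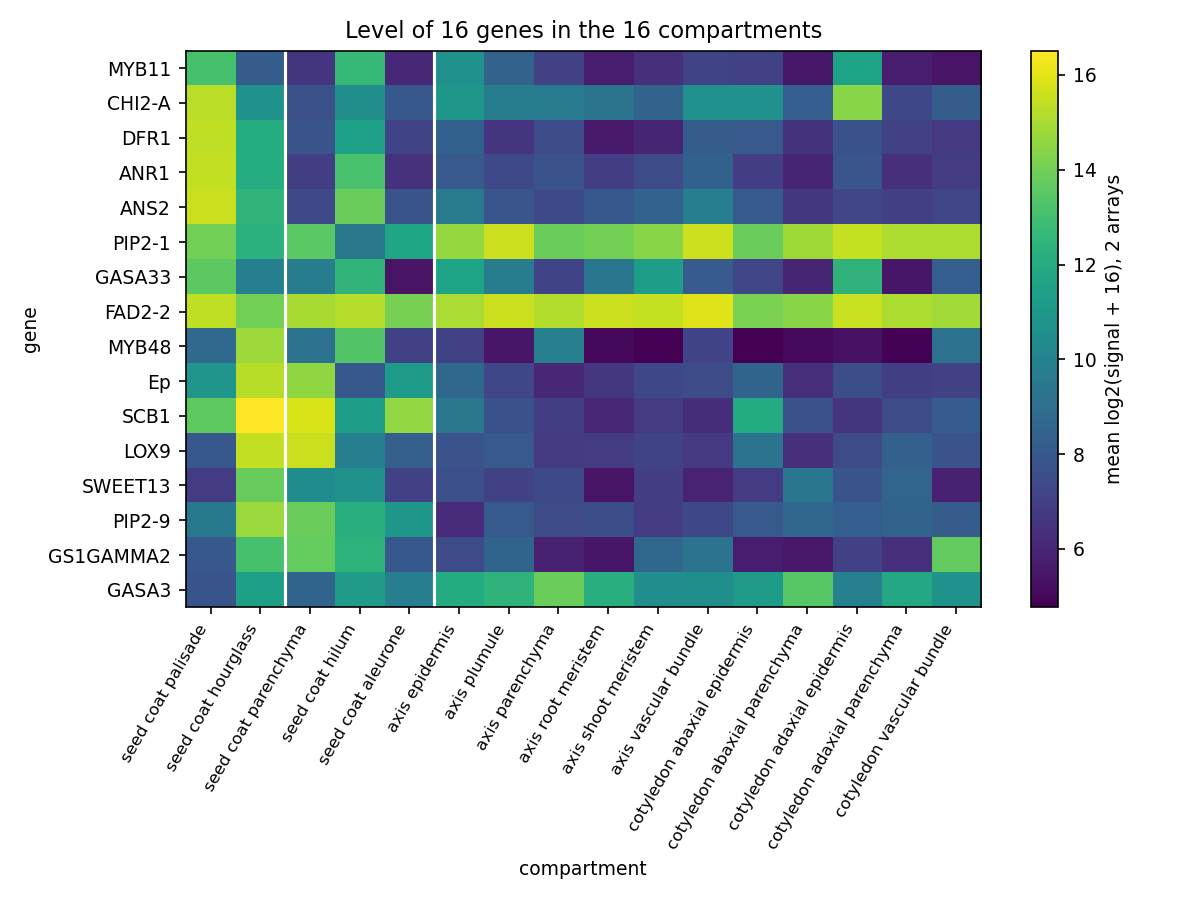
Mean log2(signal + 16) over 2 arrays for 16 genes (rows) in the 16 compartments (columns), with white lines setting the palisade and hourglass layers apart from the other coat layers and these from the 11 embryo compartments. ANR1, ANS2 and DFR1 are brightest in the palisade, Ep, SCB1, MYB48, SWEET13 and PIP2-9 in the hourglass layer, and LOX9 and GS1GAMMA2 in the parenchyma, whereas PIP2-1 and FAD2-2 are bright throughout the embryo.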

How the data were processed

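For every array the deposited table gives the intensity of each probe set, on a linear scale. The authors' software was GCOS 1.3, per the submitters' processing notes, with its algorithm and settings not given in the sources used here. On every array the trimmed mean was 500.1, which shows that a common scaling had been applied. Of 61170 probe sets, 37593 are for soybean and 23350 for the 2 pathogens on the array.

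Signals were used as deposited, as log2(signal + 16), a scale that understates changes of dim genes. Soybean probe sets were tested if they exceeded the background, the 95th percentile of the pathogen probe sets, on at least 2 arrays. 1 limma fit (3.58.1, R 4.3.3, eBayes with trend) of all 34 arrays and 17 groups gave the contrast, with 17 residual degrees of freedom and p-values adjusted by Benjamini and Hochberg. Folds are ratios of means on the same log2(signal + 16) scale. With 2 arrays a layer, the number of arrays limits the precision. The code was tested on simulated data.

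A gene was read by its brightest probe set tied to it alone, by the mean over all 34 arrays, which need not be the brightest in these layers. Among 300 genes with several tested, 3 had probe sets called in opposite directions, GSA1, PIP2-1 and WRKY33. Among genes named in the report, 4CL2, AS2, C4H, CEL12, CHI1A, CHI4A, CHS1, FAD7-2, GASA33, GASA34, GY2, H4, KTI3, LOX3, LOX9, MYB172, NAC14, PIP1-10, PIP1-4, PIP2-6, PM3, PM30, PSK3, PTF1 and SGT2 were read by probe sets that may bind near-identical copies. Named were the 12 calls with the largest fitted difference in each direction and no overlap, called members of the gene lists, and fixed markers. Lack of overlap was thus a condition for the 12 in each direction. For other called genes it describes the arrays and adds no test. The layers, members and lists were chosen with earlier results of these data known, and list patterns were narrowed after the table of symbols was seen. No genome positions or sequences were used. The alternatives cover the pseudocount, filter, scaling, arrays fitted, replicate block, array weights, trend, control level and each array left out.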

Additional observations from a re-analysis of the deposited data

How the results depend on the processing

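Across 17 alternatives, the total called ranged from 4226 to 6744 against 6311, and no named call reversed. Leaving out 1 array, where the lone array of a layer is assumed to vary like the other groups, gave 4226 to 5236 in all, 2334 to 3023 higher and 1892 to 2213 lower in the palisade, and 30 to 38 list genes higher and 61 to 84 lower. The 2334 (without palisade replicate 1) and the 30 (without palisade replicate 2) moved by over 1.5 times from 3608 and 47. Deviations of same-numbered arrays correlated at 0.04 between palisade and hourglass, within the range of -0.09 to 0.15 over all 136 pairs of groups. With 2 arrays a layer, this value cannot show whether same-numbered samples share seeds. With the replicate number as a block the counts were 3645 higher and 2735 lower, or 3771 and 2973 on the 4 arrays alone. Of 156 called genes checked, 92 kept the call in all alternatives, 94 with any 1 array left out, and 64 lost it at least once. Of the 24 with the largest fitted differences, 23 kept it throughout, the exception being ACS1. Of the named genes not called, SEOA was called in 5 alternatives, GM2S-1 in 7 and CG-1 in 1. Why calls were lost was not tested beyond the fewer arrays in each fit. Dim signals limit the comparison: 953 and 847 calls rest on a layer below background, where only bounds can be given.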

Other observations

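Some genes outside the gene lists also differed, and the ones below were chosen after their values were seen. Sugar metabolism had members on both sides. SS, a sucrose synthase, had signals of 31076 and 29249 in the palisade and 2748 and 3905 in the hourglass layer, 9.16-fold higher in the palisade (3.20 ± 0.19, adjusted p = 3.79e-12). MIPS, which makes the inositol phosphate that starts inositol and phytate synthesis, had 1324 and 1401 in the palisade and 34435 and 27104 in the hourglass layer, 22.2-fold higher in the hourglass layer (-4.47 ± 0.37, adjusted p = 1.04e-09), and its relative MIPS4 had 133 and 198 against 1759 and 1468, at least 9.06-fold higher (-3.18 ± 0.55, adjusted p = 7.6e-05). PMM, phosphomannomutase, which leads to ascorbate and to mannose in glycans, had 1048 and 1239.8 against 25419.9 and 28694, 23.4-fold higher in the hourglass layer (-4.55 ± 0.57, adjusted p = 9.35e-07). DHAR4, a dehydroascorbate reductase that recycles ascorbate, had 17784 and 19746 against 2795 and 2815, 6.65-fold higher in the palisade (2.73 ± 0.41, adjusted p = 1.47e-05). MIPS, MIPS4 and PMM had their highest mean of the 16 compartments in the hourglass layer, where PMM stood well above the parenchyma mean of 765. CIF1, an invertase inhibitor, was also higher in the hourglass layer (-2.57 ± 0.39, adjusted p = 1.35e-05).

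A pair of photoreceptor genes was higher in the hourglass layer. CRY2B, a blue light receptor of the cryptochrome family, had signals of 329.5 and 522 in the palisade and 18166 and 16165 in the hourglass layer, 39.8-fold higher in the hourglass layer (-5.31 ± 0.40, adjusted p = 2.26e-10), and the phytochrome gene PHYA had 1044 and 1174 in the palisade and 3439.6 and 3724 in the hourglass layer (-1.68 ± 0.33, adjusted p = 0.000341). SAMDC, of polyamine synthesis, had 2926 and 3771 against 16066 and 16963 (-2.31 ± 0.29, adjusted p = 1.06e-06), and SHMT, of serine and glycine exchange, had 6882 and 7277 against 31349 and 27211 (-2.04 ± 0.22, adjusted p = 7.41e-08). In jasmonate synthesis, allene oxide cyclase acts directly after the allene oxide synthase step, and its genes ran against AOS1. AOC3 had 7709 and 7009 against 2867 and 2426 (1.47 ± 0.40, adjusted p = 0.00758), higher in the palisade, and AOC6 629.9 and 806 against 332 and 181 (1.48 ± 0.44, adjusted p = 0.0144). Both cyclase calls were lost without hourglass replicate 2 (adjusted p = 0.0628 and 0.184), AOC3 also without palisade replicate 1 (0.0607) and AOC6 without palisade replicate 2 (0.114). MIPS4 and SAMDC were read by probe sets that may bind near-identical copies.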
